A study of Arabidopsis thaliana with 12 samples.

Results

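Transcript levels of 43 nuclear genes that encode antenna proteins and photosystem subunits were followed in whole Arabidopsis thaliana seedlings of the snap33 mutant and of wild type (WT). The genes were taken by locus code from the count files, out of 32744 genes counted. They were a fixed list from the named families, which may leave out other nuclear genes of these families. The list held 6 antenna genes of photosystem I (LHCA1 to LHCA6, LHCI) and 15 antenna genes of photosystem II (the LHCB1 to LHCB7 families, LHCII). It also held 12 subunits of photosystem I (PSI) and 10 of photosystem II (PSII). All 43 passed the filter on low counts, which kept 18830 genes. The 4 groups of 3 libraries each were snap33 at 12 d, WT at 12 d, snap33 at 5 d and WT at 5 d, and they serve to compare the genotypes at each age and to follow each genotype over time. SNAP33 (AT5G61210) encodes a plasma membrane SNARE of the secretory pathway, and the labels describe snap33 as a T-DNA insertional knock-out, named snap33-1 in the series title. All seedlings were untreated and grown on solid medium in long days. By the labels' dates, the snap33 seedlings of 12 d grew for 32 to 34 days from planting on 9 March. The WT seedlings of 12 d grew for 12 to 14 days, and the seedlings of both 5 d groups for 5 to 7 days, from planting on 29 March. At 12 d, the effect of genotype and that of planting date cannot be told apart.

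Photosystem II and photosystem I are pigment-protein complexes of the thylakoid membrane that drive electrons from water to ferredoxin. Their reaction centre cores are coded mostly in the chloroplast, whereas the chlorophyll-binding antenna proteins and many peripheral subunits are coded in the nucleus and imported. The nuclear genes are known in seedlings for strong induction by light, for dependence on the GLK transcription factors and for repression when chloroplasts are impaired.

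Gene counts came to 4304441 to 5754570 per library. SNAP33 itself had 16, 14 and 14 counts in snap33 replicates 1 to 3 against 119, 168 and 108 counts in WT at 12 d, and 1, 3 and 8 counts in snap33 against 95, 109 and 95 counts in WT at 5 d, so every snap33 library was below every WT library. No marker of the green tissue or root list was at 0 in all libraries of a group. The root marker NRT2.1 had only 1, 1 and 1 counts in WT at 12 d, so this does not measure the share of either tissue. WT 12 d replicate 3 stood apart, with 3.97% of its gene counts on chloroplast-coded loci against 2.33% to 3.47% in the other 11 libraries. In whole seedlings, fewer cells of a type and less RNA per cell cannot be told apart.

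The bases upstream of 8 members are shown. LHCB1.4, LHCB2.3, PSAD2 and LHCB4.3 were the members called between genotypes at 5 d. PSAH1 with PSAH2 and PSBQ1 with PSBQ2 are among the gene pairs whose shares of their family did not overlap between genotypes at 12 d. The shares in the PSAD and PSAE pairs did not overlap at 12 d either, but PSAD1, PSAE1 and PSAE2 are not shown. Each line gives the 200 bases before the annotated gene start in the TAIR10.1 RefSeq genome, 5′ to 3′ on the strand of the gene. Capitals mark the motifs searched on both strands: CACGTG (G-box), GATAAG (I-box), CCAATC (a GLK target motif), AAAATATCT (evening element) and AAAAATCT (CCA1-binding site).
LHCB1.4, AT2G34430, chr2:14524407-14524606, plus strand: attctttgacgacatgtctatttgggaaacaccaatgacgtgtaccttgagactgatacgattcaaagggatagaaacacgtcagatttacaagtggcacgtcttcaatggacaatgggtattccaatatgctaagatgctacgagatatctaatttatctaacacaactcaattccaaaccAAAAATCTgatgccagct
LHCB2.3, AT3G27690, chr3:10255706-10255905, plus strand: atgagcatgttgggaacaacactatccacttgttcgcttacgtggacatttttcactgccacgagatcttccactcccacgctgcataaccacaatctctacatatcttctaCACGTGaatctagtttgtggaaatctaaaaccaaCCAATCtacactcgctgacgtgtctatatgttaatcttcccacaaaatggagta
PSAD2, AT1G03130, chr1:754263-754462, minus strand: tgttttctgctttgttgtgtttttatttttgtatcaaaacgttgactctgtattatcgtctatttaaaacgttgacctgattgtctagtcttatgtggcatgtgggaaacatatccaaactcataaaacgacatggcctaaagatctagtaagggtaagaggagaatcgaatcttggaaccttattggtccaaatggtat
LHCB4.3, AT2G40100, chr2:16745428-16745627, plus strand: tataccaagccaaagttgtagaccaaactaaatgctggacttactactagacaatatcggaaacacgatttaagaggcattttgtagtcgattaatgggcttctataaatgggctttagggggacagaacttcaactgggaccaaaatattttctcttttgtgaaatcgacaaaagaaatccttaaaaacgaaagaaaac
PSAH1, AT3G16140, chr3:5469595-5469794, minus strand: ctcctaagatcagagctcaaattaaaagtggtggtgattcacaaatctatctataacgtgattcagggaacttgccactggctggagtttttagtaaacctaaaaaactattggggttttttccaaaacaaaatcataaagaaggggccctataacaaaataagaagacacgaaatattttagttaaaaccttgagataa
PSAH2, AT1G52230, chr1:19454598-19454797, plus strand: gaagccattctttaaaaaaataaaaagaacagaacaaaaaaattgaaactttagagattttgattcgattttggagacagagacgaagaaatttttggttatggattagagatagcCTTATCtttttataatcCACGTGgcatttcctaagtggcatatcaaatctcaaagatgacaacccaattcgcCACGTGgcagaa
PSBQ1, AT4G21280, chr4:11334152-11334351, plus strand: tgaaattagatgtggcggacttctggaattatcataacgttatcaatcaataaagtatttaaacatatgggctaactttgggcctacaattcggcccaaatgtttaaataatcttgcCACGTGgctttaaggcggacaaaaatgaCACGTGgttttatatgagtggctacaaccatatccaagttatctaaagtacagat
PSBQ2, AT4G05180, chr4:2673244-2673443, minus strand: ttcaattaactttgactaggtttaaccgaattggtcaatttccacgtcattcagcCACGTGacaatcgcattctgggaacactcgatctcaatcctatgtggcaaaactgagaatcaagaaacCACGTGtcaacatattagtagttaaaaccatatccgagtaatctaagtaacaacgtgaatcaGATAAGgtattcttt
LHCB1.4 held a CCA1-binding site 18 bases before its start, and LHCB2.3 a G-box at 88 bases and a GLK motif at 54 bases. PSAD2, LHCB4.3 and PSAH1 held none of these motifs in this window, whereas PSAH2, the partner of PSAH1, held 2 G-boxes and an I-box. PSBQ1 and PSBQ2 each held 2 G-boxes, and PSBQ2 also held an I-box at 15 bases. A GLK motif of PSBQ2 at 246 bases lay outside the bases shown. Over all 43 members, in 250 bases upstream, the G-box stood in 9 (20.9%), against 6.49% of 27443 protein-coding promoters of the same length. The GLK motif stood in 11 members (25.6%), against 10.2% of promoters, with 7 of these 11 in LHCII, 3 in LHCI, 1 in PSII and none in PSI. The I-box stood in 9 members (20.9%), against 12.3% of promoters, the CCA1-binding site in 5 (11.6%), against 6.69%, and the evening element in 1 (2.33%), against 2.36%. A letter match is a description of the window, not a bound site. The 11 members with a GLK motif had a median log2 difference between snap33 and WT of -0.43 at 12 d and 0.18 at 5 d, and the 32 without one had -0.59 at 12 d and 0.14 at 5 d. Medians for the I-box, the CCA1-binding site and the G-box went the same way at 12 d, but the motif groups share members and are not independent. LHCA1, LHCB2.1, LHCB4.2 and PSBQ2 held both a GLK motif and an I-box. At 12 d, members with an I-box had a median of -0.43, against -0.60 without one. Those with a CCA1-binding site had -0.41 against -0.58, and those with a G-box -0.52 against -0.59. The 1 member with an evening element had -0.59, against -0.55 in the others.

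At 12 d, the antenna and photosystem genes were lower in snap33 throughout. Of the 43 members, 38 were lower in snap33 than in WT, 0 were higher and 5 did not pass, counting as changed an adjusted p under 0.05 in edgeR's quasi-likelihood test over all tested genes. Over all 18830 genes, 20.5% were called lower and 21.1% higher. Upper-quartile scaling moved this split to 5186 genes lower and 3199 higher, against 3862 lower and 3964 higher here. The 43 members had a median log2 difference of -0.58, against -0.04 over all tested genes, and all 43 estimates were below 0. In 41 members no snap33 library reached the lowest WT library, which held for 25.2% of all tested genes. Together the members took 3.40% ± 0.07 of gene counts in snap33 at 12 d and 4.82% ± 0.26 in WT at 12 d (SD, n = 3 each). At 5 d they took 5.07% ± 0.50 in snap33 and 4.64% ± 0.43 in WT (SD, n = 3 each).

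The summed level of each of the 4 complexes was lower in snap33 at 12 d. Levels are CPM, counts relative to the library total after scaling with edgeR's TMM factors. The summed LHCI level was 3734, 3806 and 3844 CPM in snap33 12 d replicates 1 to 3 and 5637, 5702 and 4816 CPM in WT 12 d replicates 1 to 3, a ratio of means of 0.705. The ratio of snap33 to WT was 0.733 for the summed LHCII level, 0.692 for PSI and 0.692 for PSII. For each complex, the 3 snap33 libraries lay below the 3 WT libraries. All 6 LHCI genes were called lower, with 13 of 15 LHCII genes, 11 of 12 PSI genes and 8 of 10 PSII genes, with median log2 differences of -0.55, -0.58, -0.51 and -0.63 in that order.

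**Figure D1:**
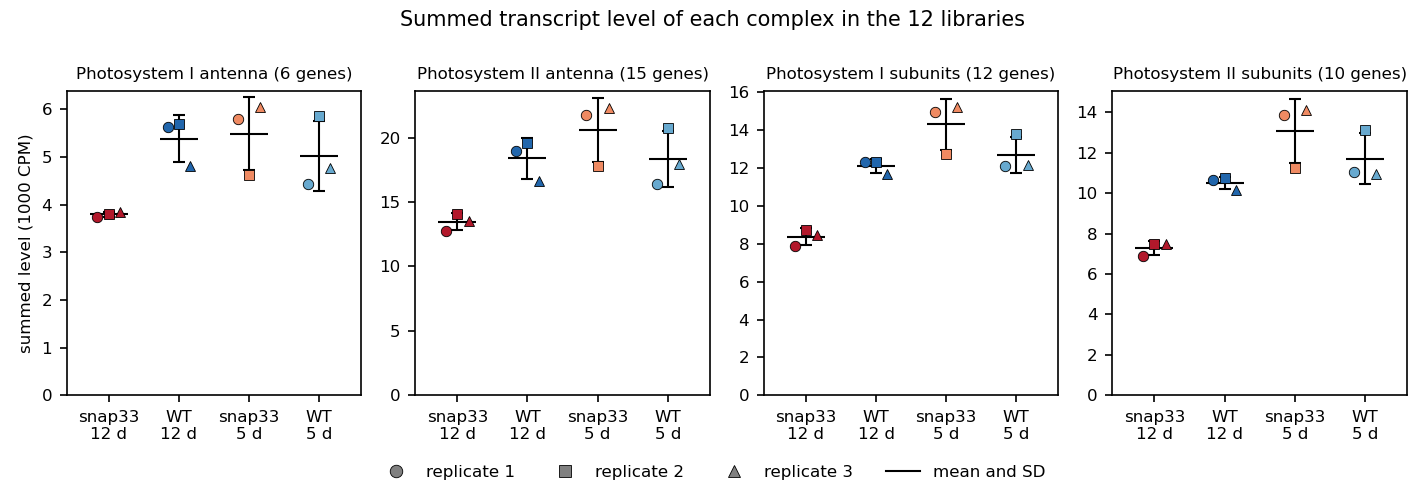
Summed level of the 6 LHCI, 15 LHCII, 12 PSI and 10 PSII genes in units of 1000 CPM (y axis) in each library, with groups on the x axis, 1 point per library, a bar for the mean and whiskers for the SD. At 12 d the snap33 libraries sit below the WT libraries in all 4 panels, while at 5 d the groups overlap.

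The photosystem I antenna genes were lower in snap33 at 12 d to different extents. LHCA1 to LHCA4 encode the antenna belt of photosystem I, and LHCA5 and LHCA6 encode rare antenna proteins that link photosystem I to the NDH complex. LHCA5 had 101, 100 and 106 CPM in snap33 12 d replicates 1 to 3 and 165, 157 and 142 CPM in WT replicates 1 to 3. The groups did not overlap, and the snap33 libraries lay within a few CPM of each other. The log2 difference of LHCA5 was -0.59 (SE 0.10, adjusted p = 0.00014 with edgeR). LHCA2 had 796, 884 and 869 CPM in snap33 and 1280, 1225 and 1129 CPM in WT at 12 d, again without overlap, with a log2 difference of -0.51 (SE 0.09, edgeR adjusted p = 0.00015). Log2 differences were -0.81 for LHCA6, -0.78 for LHCA3, -0.41 for LHCA4 and -0.38 for LHCA1. The call for LHCA1 was lost when harvest date was added as a replicate block (edgeR adjusted p = 0.0602, against 0.0315 without it).

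Among the photosystem II antenna genes, log2 differences at 12 d ran from -0.82 for LHCB5 to -0.13 for LHCB1.2, and 13 of 15 were called lower. LHCB1, LHCB2 and LHCB3 form the mobile or bound trimers, LHCB4, LHCB5 and LHCB6 are single antenna proteins between trimers and core, and LHCB7 is a rare relative. LHCB2.3 had 297, 356 and 303 CPM in snap33 12 d replicates 1 to 3 and 547, 613 and 513 CPM in WT replicates 1 to 3. Every snap33 library was below every WT library, and the fall was 1.75-fold (log2 difference -0.81, SE 0.13, edgeR adjusted p = 3.39e-05). LHCB2.1 and LHCB2.2, the abundant genes of the same family, had log2 differences of -0.51 and -0.59. LHCB1.4 had 346, 395 and 320 CPM in snap33 and 533, 597 and 481 CPM in WT at 12 d, with no overlap. Its log2 difference was -0.60 (SE 0.11, edgeR adjusted p = 0.00018). Summed with the near-identical LHCB1.5, the log2 difference was -0.39 (edgeR adjusted p = 0.00231). That sum follows mostly LHCB1.5, which averaged 1711 CPM in snap33 and 2172 CPM in WT at 12 d. LHCB1.1 and LHCB1.5 were also lower, by log2 differences of -0.41 and -0.34. LHCB1.2 (-0.13, SE 0.12, edgeR adjusted p = 0.411) and LHCB1.3 (-0.21, SE 0.11, edgeR adjusted p = 0.13) did not pass. In LHCB1.2 the groups overlapped, with 1056, 1056 and 1063 CPM in snap33 and 1170, 1325 and 984 CPM in WT at 12 d. LHCB5 (-0.82), LHCB4.3 (-0.78), LHCB4.1 (-0.68), LHCB3 (-0.61), LHCB7 (-0.58), LHCB4.2 (-0.43) and LHCB6 (-0.33) were all called lower. LHCB6 and LHCB7 lost the call with harvest date as a replicate block (edgeR adjusted p = 0.0972 and 0.0631). LHCB7 rested on 46 to 88 counts per library at 12 d.

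Of the 12 photosystem I subunit genes, 11 were lower in snap33 at 12 d, with PSAN and PSAH1 at the low end and PSAO short of the threshold. PSAD and PSAE form the ferredoxin side of the complex, PSAF and PSAN the plastocyanin side, PSAH, PSAL and PSAO the docking site of LHCII, and PSAG and PSAK flank the antenna. PSAH1 had 274, 316 and 306 CPM in snap33 12 d replicates 1 to 3 and 538, 572 and 514 CPM in WT replicates 1 to 3. The highest snap33 library was far below the lowest WT library, and PSAH1 fell 1.81-fold (log2 difference -0.86, SE 0.11, edgeR adjusted p = 3.65e-06). Its paralog PSAH2 had 587, 639 and 638 CPM in snap33 and 876, 886 and 805 CPM in WT at 12 d, a log2 difference of -0.46. PSAN fell 1.99-fold, with 354, 403 and 395 CPM in snap33 and 739, 861 and 687 CPM in WT at 12 d, the lowest log2 difference of the complex (-0.99, SE 0.13, edgeR adjusted p = 7.01e-06). PSAD2 had 288, 295 and 297 CPM in snap33 and 491, 525 and 421 CPM in WT at 12 d, without overlap, and a log2 difference of -0.71 (SE 0.13, edgeR adjusted p = 0.00015). Log2 differences were -0.72 for PSAF, -0.65 for PSAE1, -0.52 for PSAE2, -0.51 for PSAL, -0.49 for PSAD1, -0.43 for PSAG and -0.43 for PSAK, all called lower. PSAO had 1020, 1118 and 1082 CPM in snap33 and 1266, 1179 and 1273 CPM in WT at 12 d. These groups did not overlap, but the log2 difference of -0.21 fell just short of the threshold (SE 0.08, edgeR adjusted p = 0.0501).

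The photosystem II subunits spanned the widest range of 12 d differences. PSBO1, PSBO2, PSBP1, PSBQ1, PSBQ2 and PSBR sit on the lumen side around the oxygen-evolving cluster, PSBS triggers the heat dissipation of excess light energy, and PSBW, PSBX and PSBY are small membrane-spanning subunits. PSBQ1 had 211, 282 and 248 CPM in snap33 12 d replicates 1 to 3 and 472, 576 and 528 CPM in WT replicates 1 to 3. The groups were well apart, and PSBQ1 fell 2.13-fold (log2 difference -1.09, SE 0.14, edgeR adjusted p = 5.31e-06), while its paralog PSBQ2 had a log2 difference of -0.41. PSBX had 859, 975 and 988 CPM in snap33 and 1828, 1721 and 1341 CPM in WT at 12 d, a log2 difference of -0.79 (SE 0.13, edgeR adjusted p = 5.18e-05). PSBY had the lowest estimate of all members, -1.20 (SE 0.19, edgeR adjusted p = 3.3e-05), with 139, 172 and 181 CPM in snap33 and 286, 304 and 540 CPM in WT at 12 d. The WT library at 540 CPM is replicate 3, and without it the log2 difference of PSBY was -0.85 (edgeR adjusted p = 1.64e-05). PSBO2 depended on the same library: it had 164, 199 and 191 CPM in snap33 and 169, 222 and 458 CPM in WT at 12 d, did not pass (log2 difference -0.61, SE 0.28, edgeR adjusted p = 0.0887), and gave -0.08 without WT 12 d replicate 3. The abundant PSBO1 had 1208, 1303 and 1278 CPM in snap33 and 1870, 1830 and 1609 CPM in WT at 12 d, with a log2 difference of -0.49. PSBS (-0.72), PSBW (-0.65) and PSBP1 (-0.53) were called lower. PSBR, at 2106, 2203 and 2281 CPM in snap33 and 2612, 2416 and 2486 CPM in WT at 12 d, did not pass (log2 difference -0.19, SE 0.09, edgeR adjusted p = 0.0821), although its groups did not overlap.

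**Figure D2:**
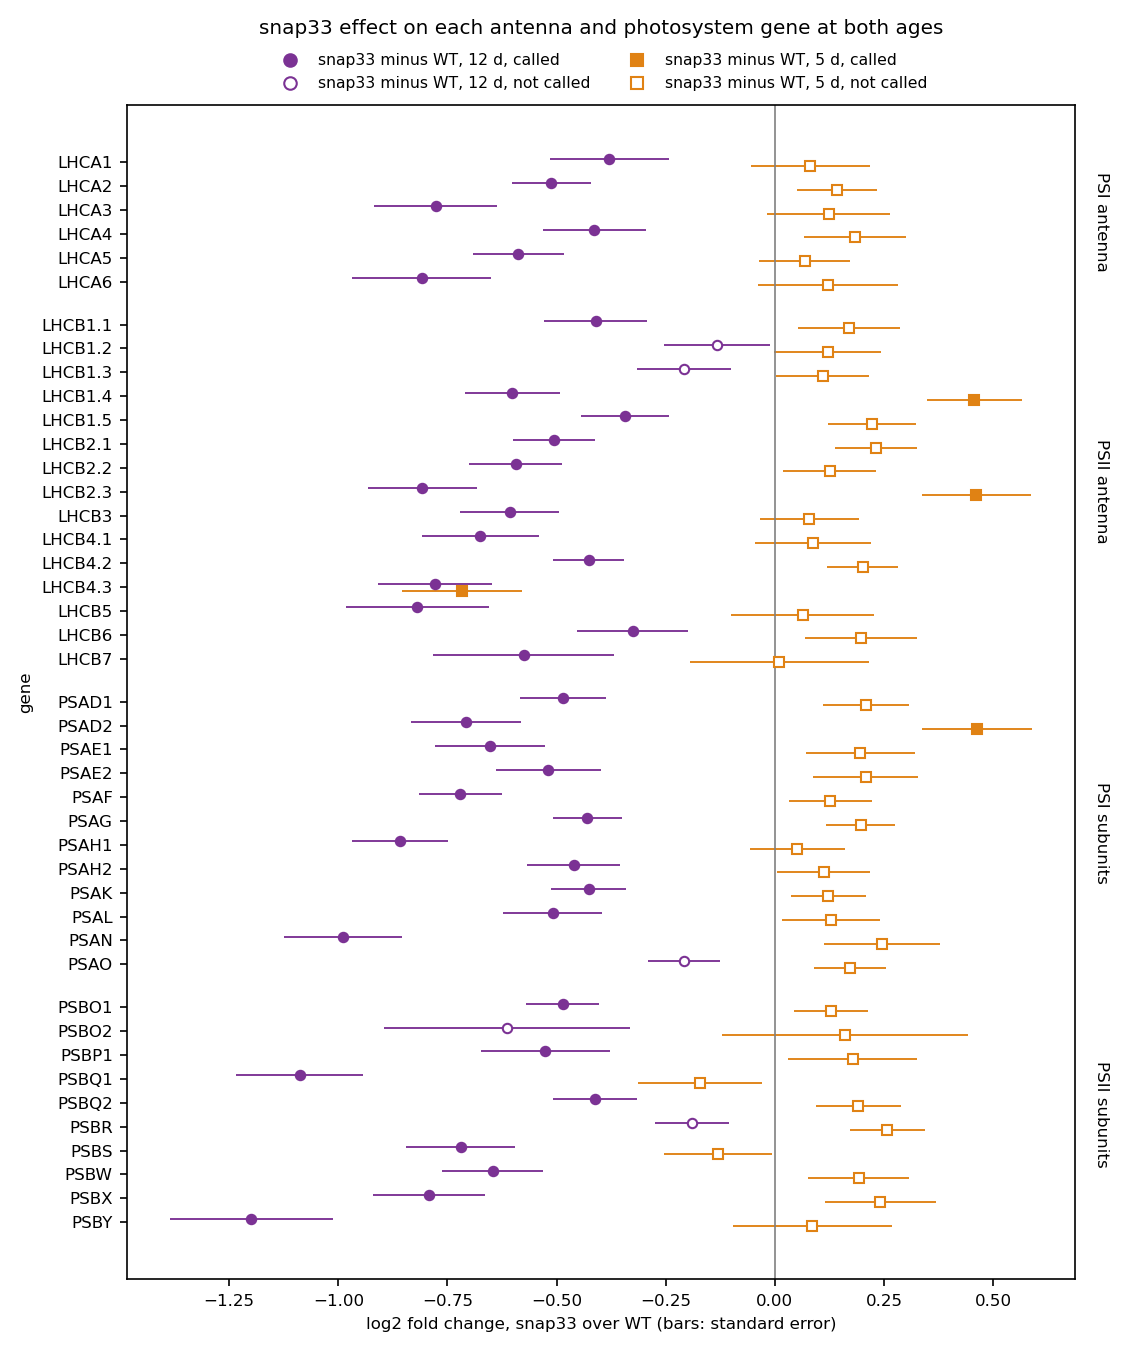
Log2 fold change of snap33 over WT (x axis) for each of the 43 genes (y axis, grouped by complex), with circles for 12 d and squares for 5 d, filled where called, and bars for the standard error. All 12 d estimates lie below 0, while at 5 d 40 of 43 lie above 0 with 3 called, and LHCB4.3 is called lower at both ages.

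At 5 d few members were called. Of the 43 members, 3 were called higher (LHCB1.4, LHCB2.3 and PSAD2), 1 was called lower (LHCB4.3) and 39 did not pass, against 8.22% called higher and 4.77% called lower over all tested genes. Estimates were above 0 for 40 members (39 with upper-quartile scaling), with a median log2 difference of 0.14 against -0.0034 over all tested genes. In 7 members every snap33 library was above every WT library, against 16.7% of all tested genes. The count of 3 depended on single libraries: it was 1 without replicate 1 of snap33 5 d, without replicate 3 of snap33 5 d or without replicate 1 of WT 5 d, 0 without WT 5 d replicate 3, and 5 without snap33 5 d replicate 2. Pairs with 1 harvest date differed too. On 3 April 42 of 43 members were higher in the snap33 library than in the WT library, on 4 April 7 were, and on 5 April 41 were, with median log2 differences of 0.38, -0.28 and 0.28. At 12 d, 0, 0 and 1 of 43 were higher in snap33 on 10, 11 and 12 April, with medians of -0.63, -0.59 and -0.41.

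LHCB1.4, a gene of the major trimer, had 904, 869 and 951 CPM in snap33 5 d replicates 1 to 3 and 660, 737 and 587 CPM in WT replicates 1 to 3. The groups did not overlap, and the log2 difference was 0.46 (SE 0.11, edgeR adjusted p = 0.00823). Some of its reads can be shared with other loci, since 92.7% of the 75-base stretches of its exons were unique in the TAIR10.1 genome. Summed with the near-identical LHCB1.5, the log2 difference was 0.28 and was not called (edgeR adjusted p = 0.0568). LHCB1.5 averaged 2655 CPM in snap33 and 2277 CPM in WT at 5 d, with a log2 difference of 0.22. The sum thus follows mostly LHCB1.5 and cannot decide whether the LHCB1.4 call rests on shared reads. PSAD2, which encodes a form of the ferredoxin-docking subunit, had 463, 371 and 549 CPM in snap33 and 297, 366 and 342 CPM in WT at 5 d, with no overlap but with snap33 replicate 2 close to WT (log2 difference 0.46, SE 0.13, edgeR adjusted p = 0.0198). LHCB2.3 had 481, 378 and 509 CPM in snap33 and 288, 379 and 326 CPM in WT at 5 d. Its groups overlapped, since snap33 replicate 2 lay just below WT replicate 2, and the log2 difference was 0.46 (SE 0.13, edgeR adjusted p = 0.0195).

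LHCB4.3 was the 1 member called lower at 5 d. It encodes an isoform of the LHCB4 antenna protein known to accumulate in strong light. It had 54.6, 41.5 and 44.6 CPM in snap33 5 d replicates 1 to 3 and 84.4, 83.9 and 63.0 CPM in WT replicates 1 to 3, so every snap33 library was below every WT library. The log2 difference was -0.72 (SE 0.14, edgeR adjusted p = 0.00168). At 12 d it had 60.2, 75 and 64.0 CPM in snap33 and 112, 114 and 115 CPM in WT, a log2 difference of -0.78 (SE 0.13, edgeR adjusted p = 7.78e-05). The effects at the 2 ages differed by a log2 value of -0.06 (SE 0.19, edgeR adjusted p = 0.859). LHCB4.1 and LHCB4.2, the abundant genes of the family, had log2 differences of 0.09 and 0.20 at 5 d, neither called.

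Of the other LHCI and LHCII members at 5 d, none passed, and LHCB2.1 and LHCB4.2 had groups that did not overlap. Of all members not called, PSBR was nearest to the threshold, with 2908, 2695 and 3314 CPM in snap33 and 2417, 2621 and 2419 CPM in WT at 5 d (log2 difference 0.26, SE 0.09, edgeR adjusted p = 0.0516). PSBQ1 (-0.17, SE 0.14) and PSBS (-0.13, SE 0.12) were, with LHCB4.3, the members with estimates below 0. PSBO2 had 393, 166 and 216 CPM in snap33 and 230, 222 and 242 CPM in WT at 5 d, and 1 snap33 library set its spread.

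**Figure D3:**
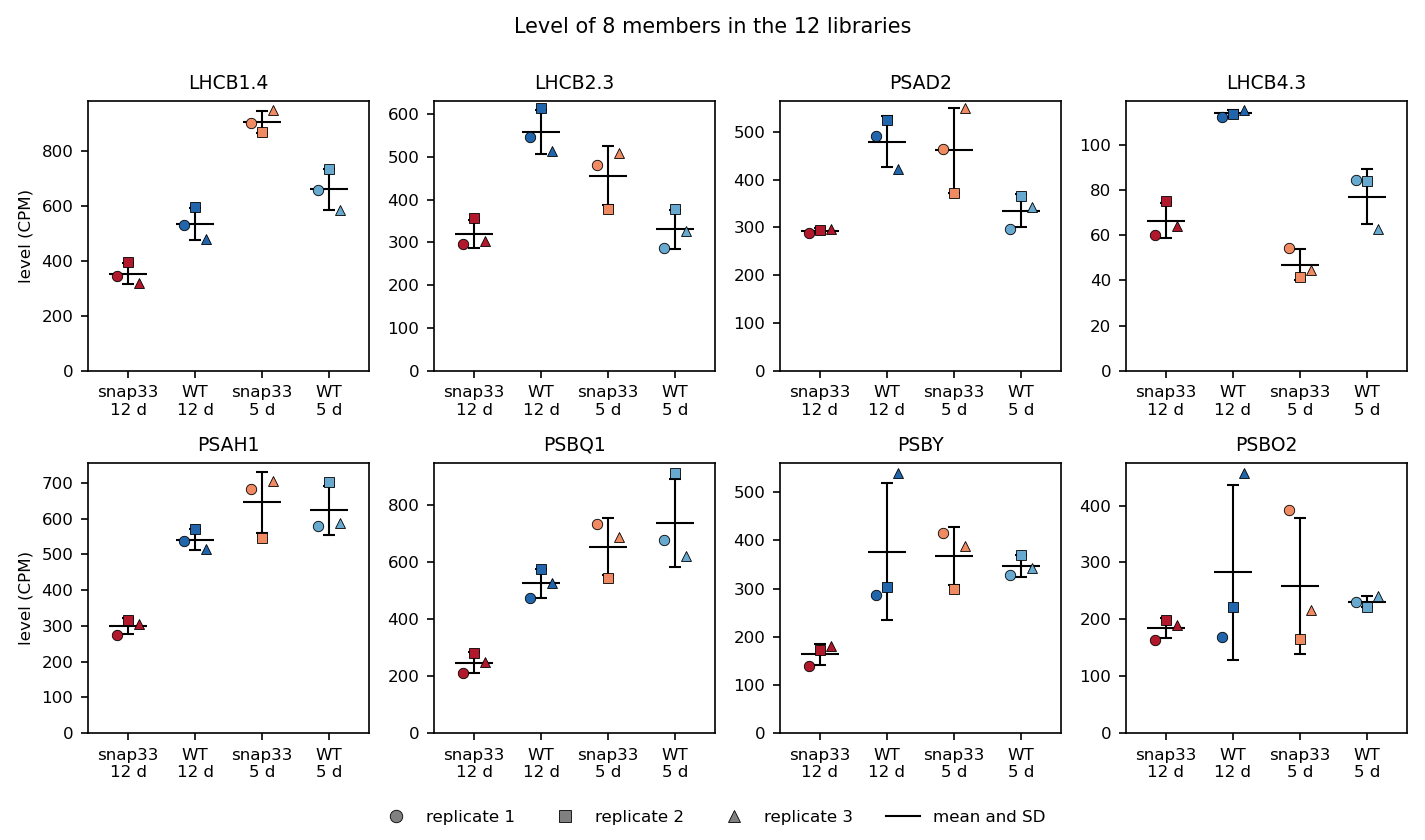
Level in CPM (y axis, linear from 0) of 8 members in each library, with groups on the x axis, points for libraries, bars for means and whiskers for the SD. LHCB1.4, LHCB2.3 and PSAD2 have higher means in snap33 than in WT at 5 d and lower means at 12 d, LHCB4.3 is lower at both ages, and PSBY and PSBO2 have 1 high WT 12 d library.

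The snap33 effect at 12 d was below that at 5 d in most members. The difference between the effects was called lower for 37 of 43 members and higher for 0, with a median log2 value of -0.69, against 12.8% of all tested genes lower and 11% higher. All 12 PSI genes were among the 37, with 9 of 10 PSII genes, 5 of 6 LHCI genes and 11 of 15 LHCII genes. LHCB2.3 had the largest shift of LHCII (-1.27, SE 0.18, edgeR adjusted p = 4.19e-05), PSAD2 the smallest p of PSI (-1.17, SE 0.18, edgeR adjusted p = 9.88e-05), PSBX that of PSII (-1.03, SE 0.18, edgeR adjusted p = 0.00035) and LHCA2 that of LHCI (-0.65, SE 0.13, edgeR adjusted p = 0.00103). In LHCB1.4, LHCB2.3 and PSAD2 the effects were called in opposite directions at the 2 ages. The difference for LHCB1.4 was -1.06. Its sum with LHCB1.5, which follows mostly LHCB1.5, had -0.67 (edgeR adjusted p = 0.00109). The 6 members whose difference did not pass were LHCA1 (-0.46), LHCB1.2 (-0.25), LHCB1.3 (-0.32), LHCB4.3 (-0.06), LHCB7 (-0.59) and PSBO2 (-0.77). With harvest date as a replicate block 33 were called, and LHCB6 (edgeR adjusted p = 0.0914), PSAO (0.102), PSBR (0.0563) and PSBS (0.055) lost the call. Across the 43 genes, which are not independent and share libraries, the 12 d and the 5 d log2 differences were weakly related (Pearson r = 0.22, Spearman rho = 0.23).

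Over time, WT and snap33 libraries gave different counts. In WT, 5 members were higher at 12 d than at 5 d and 7 were lower, against 21.5% and 19.2% of all tested genes, with a median log2 difference of -0.01. Estimates were above 0 for 18 members and below 0 for 25, but for 29 and 14 without WT 5 d replicate 2, when the median was 0.05. With upper-quartile scaling 3 members were called higher and 11 lower, and estimates were above 0 for 14 and below 0 for 29. The count of 5 was 3 without WT 5 d replicate 1, WT 5 d replicate 3 or WT 12 d replicate 1. The count of 7 was 0 without WT 5 d replicate 2 and 3 without WT 12 d replicate 3. LHCB2.3 was 1.68-fold higher at 12 d in WT, PSAD2 1.43-fold, LHCB4.3 1.48-fold, LHCA4 1.27-fold and LHCB2.1 1.21-fold. LHCB1.4 was 1.23-fold lower at 12 d in WT, PSAE2 1.32-fold and PSBQ1 1.4-fold, together with PSAD1, PSAE1, PSAG and PSBS. Of 15 alternatives, the call was kept in 9 for LHCB1.4, 10 for LHCA4, 13 for PSAE2 and 14 for PSBQ1. LHCB1.4 summed with LHCB1.5, a sum that follows mostly LHCB1.5, had a log2 difference of -0.12 (edgeR adjusted p = 0.34).

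In snap33, 40 members were lower at 12 d than at 5 d and 1, LHCB4.3, was higher, against 26.6% and 28.2% of all tested genes. Upper-quartile scaling called 6313 genes lower and 4371 higher, against 5010 lower and 5305 higher here. The median log2 difference was -0.67. LHCB1.4 was 2.57-fold lower at 12 d in snap33 (log2 difference -1.36). Its sum with LHCB1.5, which follows mostly LHCB1.5, had -0.79. PSBX was 2.56-fold lower, PSBQ1 2.65-fold, LHCA3 1.95-fold and PSAG 1.81-fold. LHCB4.3 was 1.41-fold higher at 12 d. LHCA4 and PSBO2 did not pass. These snap33 comparisons also span the planting dates of 9 and 29 March, which cannot be told apart from age.

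Within families, the balance between paralogs was taken as shares of the summed CPM of the family. PSAH1 made up 31.8%, 33.1% and 32.4% of PSAH in snap33 12 d replicates 1 to 3 and 38.0%, 39.2% and 39.0% in WT 12 d replicates 1 to 3. At 5 d its share was 40.3% ± 1.1 in snap33 and 41.3% ± 0.62 in WT (SD, n = 3 each), so snap33 at 12 d lay below all other groups. PSBQ1 made up 33.9%, 40.8% and 37.4% of PSBQ in snap33 12 d replicates 1 to 3 and 47.5%, 49.95% and 49.3% in WT 12 d replicates 1 to 3. At 5 d its share was 46.8% ± 2.6 in snap33 and 52.9% ± 2.6 in WT (SD, n = 3 each), without overlap between genotypes at either age. PSAD2 had 25.1% ± 0.31 of PSAD in snap33 and 28.1% ± 0.27 in WT at 12 d, and 21.2% ± 1.6 in snap33 and 18.5% ± 0.89 in WT at 5 d (SD, n = 3 each). The order of the genotypes was thus opposite at the 2 ages. LHCB2.3 had 10.9% ± 0.59 of LHCB2 in snap33 and 12.8% ± 1.0 in WT at 12 d, and 10.8% ± 0.72 in snap33 and 9.07% ± 0.56 in WT at 5 d (SD, n = 3 each). LHCB1.4 had 5.42% ± 0.49 of LHCB1 in snap33 and 6.66% ± 0.21 in WT at 12 d, and 9.34% ± 0.85 in snap33 and 7.71% ± 0.84 in WT at 5 d (SD, n = 3 each).

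LHCB4.3 was a small part of LHCB4 in all groups, at 4.17% ± 0.34 in snap33 and 4.89% ± 0.57 in WT at 12 d, and at 1.84% ± 0.17 in snap33 and 3.29% ± 0.53 in WT at 5 d (SD, n = 3 each). At 5 d the snap33 libraries lay below the WT libraries. PSAE1 had 79.6% ± 0.52 of PSAE in snap33 and 81.0% ± 0.84 in WT at 12 d, without overlap, and 80.4% ± 0.34 in snap33 and 80.5% ± 0.65 in WT at 5 d (SD, n = 3 each). PSBO2 had 13.7% ± 7.4 of PSBO in WT at 12 d, with the spread set by replicate 3, and 12.7% ± 0.69 in snap33 at 12 d (SD, n = 3 each). These shares are a description and were not tested.

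**Figure D4:**
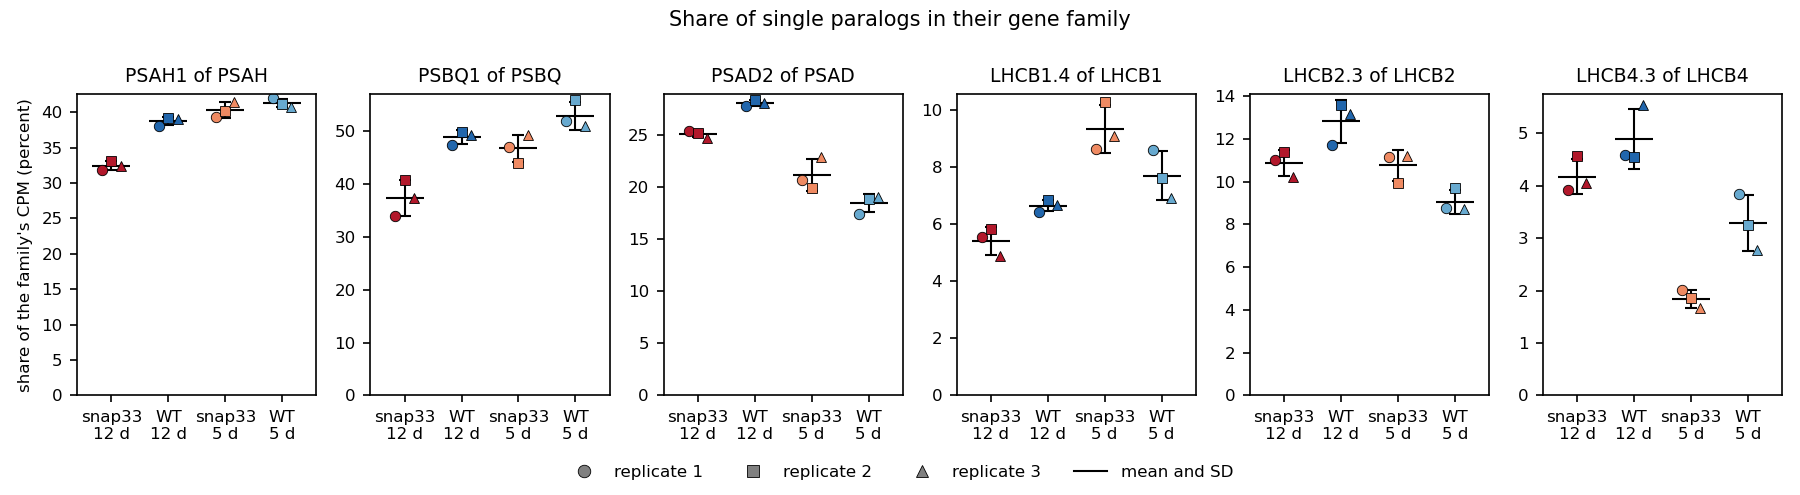
Share of 6 single paralogs in the summed CPM of their family in percent (y axis, from 0), with groups on the x axis, 1 point per library, bars for means and whiskers for the SD. The shares of PSAH1 and PSBQ1 are lowest in snap33 at 12 d, and those of PSAD2, LHCB1.4 and LHCB2.3 have the genotypes in opposite order at the 2 ages.

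Levels between members were compared per kilobase of merged exons. PSBR had the highest level in all 4 groups, with 2802 ± 111 CPM per kb in snap33 and 3195 ± 127 CPM per kb in WT at 12 d, and 3791 ± 401 CPM per kb in snap33 and 3171 ± 149 CPM per kb in WT at 5 d (SD, n = 3 each). PSBX had rank 7 in snap33 at 12 d, at 1306 ± 98.9 CPM per kb, and rank 2 in WT at 12 d, at 2264 ± 356 CPM per kb. In WT at 12 d, PSBX, PSAG (2157 ± 27.3 CPM per kb) and LHCB1.5 (2078 ± 162 CPM per kb) did not differ beyond their SDs. The lowest levels in all 4 groups were, in rising order, those of LHCB7, LHCB4.3, LHCA6 and LHCA5. LHCB7 had 7.78 ± 0.39 CPM per kb in snap33 and 11.6 ± 0.46 CPM per kb in WT at 12 d, and LHCA5 had 96.0 ± 3.0 CPM per kb in snap33 and 144 ± 11 CPM per kb in WT at 12 d (SD, n = 3 each). Across the 43 genes, the log2 difference at 12 d was higher for members with a higher level per kilobase in the WT libraries of 5 d (Pearson r = 0.40, Spearman rho = 0.52), a description over genes that share libraries.

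Genes that act with the members in photosynthesis were mostly lower in snap33 at 12 d as well. The counts of this and the other lists stand beside the shares over all tested genes. These were 20.5% lower and 21.1% higher at 12 d, and 4.77% lower and 8.22% higher at 5 d. Among 11 genes of electron transport and ATP synthase, 8 were lower and 0 higher at 12 d (median log2 difference -0.64), and 1 was higher at 5 d. FD2, the main leaf ferredoxin that takes electrons from photosystem I, averaged 831 ± 104 CPM in snap33 and 1990 ± 143 CPM in WT at 12 d (SD, n = 3 each), a 2.39-fold fall (edgeR adjusted p = 2.01e-08). FD1 fell 1.79-fold and PETM, a small subunit of the cytochrome complex, 1.76-fold, and PETM was also the gene called higher at 5 d, 1.31-fold, a call lost without snap33 5 d replicate 3. Among 17 tested genes of chlorophyll synthesis (of 18 listed), 11 were lower and 2 higher at 12 d (median log2 difference -0.50), and 1 was higher at 5 d. HEMA1, which starts the pathway, averaged 195 ± 30.2 CPM in snap33 and 503 ± 15.4 CPM in WT at 12 d (SD, n = 3 each), a 2.58-fold fall (edgeR adjusted p = 9.84e-09). CRD1, the cyclase, fell 2.16-fold and CHLH, a subunit of magnesium chelatase, 1.75-fold. HEMA2 and PORC, named after their values were seen, were the 2 that were higher at 12 d, and PORB, which reduces protochlorophyllide in light, was 1.95-fold higher in snap33 at 5 d.

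Of 5 genes for proteins that bring antenna proteins to the thylakoid, 4 were lower at 12 d (median log2 difference -0.46) and 0 at 5 d. LTD fell 1.78-fold, CPSRP43 1.70-fold and the insertase ALB3 1.38-fold. Of 6 genes of antenna phosphorylation and quenching, 2 were lower at 12 d (median log2 difference -0.33), the kinase STN8 by 1.78-fold and the phosphatase TAP38 by 1.49-fold. At 5 d TAP38 was 1.46-fold higher and the phosphatase PBCP 1.43-fold lower, a call lost without any 1 of the 6 libraries. Of 8 LHC-like genes, which encode relatives of the antenna proteins, 5 were lower at 12 d (median log2 difference -0.38), with LIL3.2 2.18-fold, ELIP2 2.13-fold and OHP1 1.37-fold lower, and ELIP1 was 1.53-fold lower at 5 d. Among 10 light and chloroplast regulators, 7 were lower at 12 d (median log2 difference -0.49) and 0 were called at 5 d. GLK2 averaged 42.98 ± 3.3 CPM in snap33 and 79.4 ± 9.4 CPM in WT at 12 d, and GLK1 34.4 ± 3.8 CPM in snap33 and 56.7 ± 7.5 CPM in WT (SD, n = 3 each). GLK2 fell 1.85-fold (edgeR adjusted p = 5.63e-05), GLK1 1.65-fold (edgeR adjusted p = 0.00051) and the GATA factor GNC 1.75-fold (edgeR adjusted p = 1.25e-05).

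**Figure D5:**
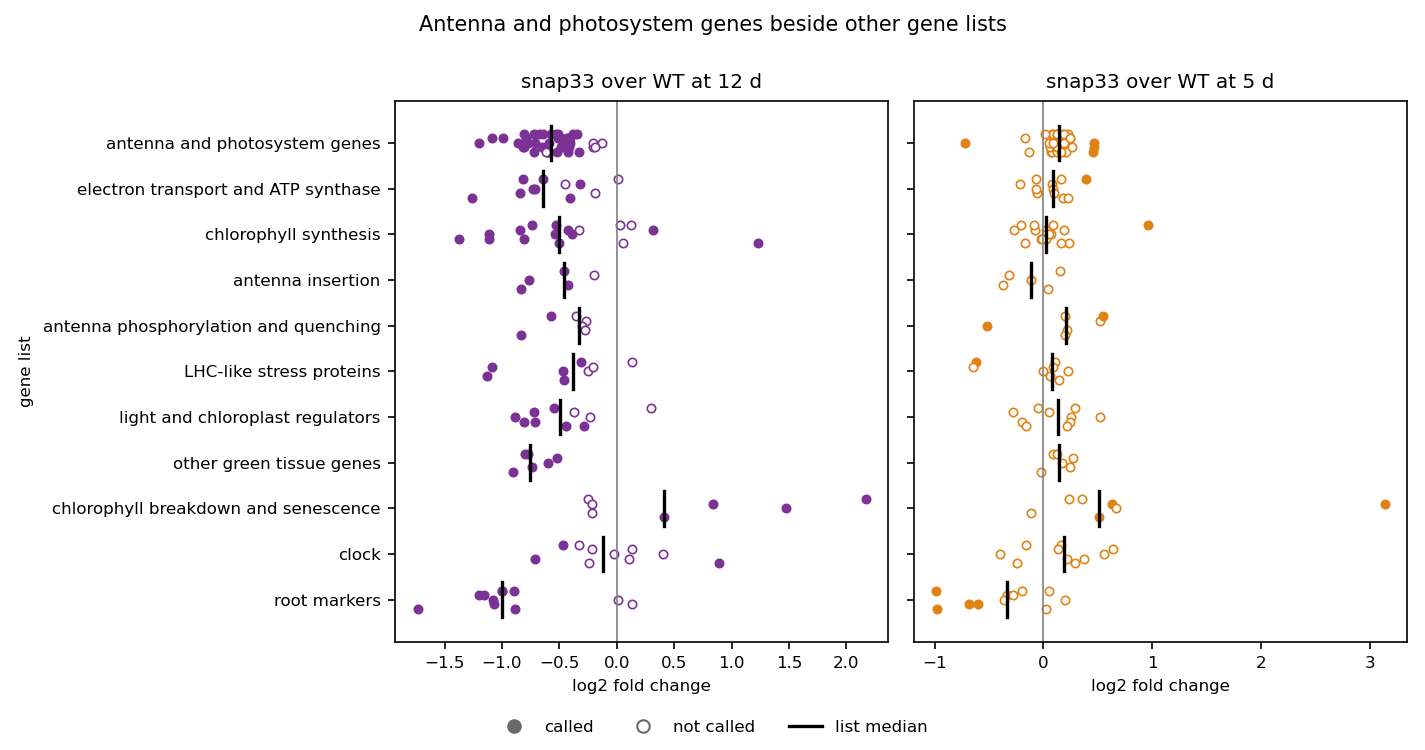
Log2 fold change of snap33 over WT (x axis, 12 d left, 5 d right, with separate scales) for the 43 members and for the tested genes of 10 other lists (y axis), 1 point per gene, filled where called, with a black bar at the list median. At 12 d the lists around photosynthesis lie mostly below 0, as do the root markers, and chlorophyll breakdown has a median above 0.

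In the list of chlorophyll breakdown and senescence, 4 of 7 tested genes (8 listed) were higher and 0 lower at 12 d (median log2 difference 0.41), and 3 were higher at 5 d (median 0.51). SAG13, a senescence gene, was 4.5-fold higher at 12 d, the senescence regulator ORE1 2.77-fold, and NYE1, which starts chlorophyll breakdown, 1.78-fold. NYC1, PAO and SEN1, named here after their values were seen, were the 3 that did not pass at 12 d, with estimates below 0. SEN1 averaged 181 ± 10.6 CPM in snap33 and 210 ± 78.2 CPM in WT at 12 d (SD, n = 3 each). At 5 d SEN1 was 8.77-fold higher, NYE1 1.55-fold and PPH 1.42-fold, the last not called without WT 5 d replicate 2. Among 10 tested clock genes (11 listed), 1 was called higher and 2 lower at 12 d, against 21.1% and 20.5% of all tested genes. The clock list was thus called no more often than tested genes in general. TOC1 was 1.86-fold higher at 12 d, GI 1.64-fold and LUX 1.39-fold lower. LUX was not called without snap33 12 d replicate 1, WT 12 d replicate 1 or WT 12 d replicate 2. At 5 d 0 clock genes were called (median log2 difference -0.12 at 12 d and 0.19 at 5 d). Of 8 chloroplast-coded loci, read here in libraries of polyadenylated RNA, 2 were lower at 12 d, near the 20.5% of all tested genes. These were ATCG00350 (log2 difference -0.99) and ATCG00270 (-0.73, edgeR adjusted p = 0.0455), and 0 were called at 5 d. ATCG00270 had 331, 365 and 410 counts in snap33 and 432, 340 and 1020 counts in WT at 12 d. The groups overlapped, and the count of 1020 is that of WT replicate 3. Without it the log2 difference was -0.05 (edgeR adjusted p = 0.834), and the call was also lost without any 1 of the snap33 12 d libraries.

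Markers of both green tissue and root moved at 12 d. All 6 other green tissue genes were lower in snap33 (median log2 difference -0.76), with RCA, the activase of Rubisco, 1.88-fold lower, CA1, a carbonic anhydrase, 1.71-fold and HPR, an enzyme of photorespiration, 1.67-fold. Their summed level was 3942 to 4178 CPM in snap33 and 6640 to 6795 CPM in WT at 12 d, and 6776 to 8398 CPM in snap33 and 6831 to 7743 CPM in WT at 5 d. Of 11 tested root markers (12 listed), 9 were lower at 12 d (median log2 difference -0.998), with PRP3 3.33-fold, CASP1 1.998-fold and TIP2;3 1.86-fold lower. At 5 d 4 were lower (median -0.33), among them PRP3 1.97-fold, EXPA18 1.98-fold and PIN2 1.51-fold. Each of these 5 d calls was lost without WT 5 d replicate 2, WT 5 d replicate 3 or snap33 5 d replicate 1, that of EXPA18 also without snap33 5 d replicate 3, and that of PIN2 without snap33 5 d replicate 2 or WT 5 d replicate 1. The summed root marker level was 250 to 264 CPM in snap33 and 365 to 643 CPM in WT at 12 d, and 242 to 295 CPM in snap33 and 295 to 336 CPM in WT at 5 d. The part of these tissue markers in the members' differences was not tested.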

How the data were processed

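RNA was measured in 12 libraries of polyadenylated, stranded, single-read RNA-seq, per the labels' protocols. For replicate 1 of snap33 at 12 d the protocol adds a 3' format. Per the submitters' processing notes, reads were aligned with STAR to TAIR10. The deposited values are raw read counts for each gene, without normalization by the authors, in files that close with the lines of htseq-count. Annotation, read length and strand setting were not stated in the sources used here, so the 17 members that overlap another annotated gene (PSAD2 and PSBP1 on the same strand) and the near-identical LHCB1 and LHCB2 genes are less certain. The unassigned lines, 9.26% to 12.1% of each library, were left out. Groups follow the sample titles, since the genotype field of WT libraries also carries mutant wording. Replicate pairs differed by more than sampling noise (chi-square per degree of freedom 1.59 to 9.98). By the labels, the replicates of a group were harvested on successive days after 1 planting date, so their spread includes harvest day and days of growth. Nothing says that replicates came from separate plates, so p-values measure the spread between these samples, part of which may be technical.

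The test was that of edgeR 4.0.16 under R 4.3.3 (quasi-likelihood, TMM scaling, default low-count filter, all 12 libraries in 1 fit with a mean per group, Benjamini-Hochberg adjustment over 18830 genes, calls at an adjusted p under 0.05). SE is the log2 fold change over the square root of F. DESeq2 1.42.0, other scalings, no filter, fewer libraries, blocks, summed near-identical genes and leaving out each library were alternatives, and the procedure was checked on simulated data. Same-numbered libraries of an age share a harvest date in the labels, which pairs them across genotypes. Their deviations from the group means correlated at -0.25 to -0.0038, and the fit with harvest date as a replicate block called 35 members lower at 12 d, against 38 without it. Library values are given for the called member with the smallest p per complex, direction and genotype contrast, for members called against their complex, and for LHCB1.2, PSAN, PSAO, PSBO1, PSBO2, PSBR, PSBY and PSAH2, chosen after their values were seen. Lists are shown by up to 3 called genes of smallest p. The members and lists were chosen with earlier results of these data known. Upstream bases and exon lengths come from RefSeq TAIR10.1, in which all 43 members were matched by locus code.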

Additional observations from a re-analysis of the deposited data

Results flagged for a closer look

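The snap33 effect at 12 d differed from that at 5 d, by a test of the difference itself, in 37 of the 43 antenna and photosystem genes (edgeR). Among the members with library values, the 12 d effect minus the 5 d effect was -1.27 on the log2 scale for LHCB2.3, -1.17 for PSAD2, -1.06 for LHCB1.4 (-0.67 for its sum with the near-identical but more abundant LHCB1.5), -1.03 for PSBX, -0.92 for PSBQ1, -0.91 for PSAH1, -0.66 for LHCA5 and -0.65 for LHCA2. The planting date of the snap33 seedlings of 12 d cannot be told apart from this difference.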

How the results depend on the processing

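No called value changed sign, but estimates near 0 did: without 1 library PSBQ1, LHCA5 and PSAH1 at 5 d reached 0.01, -0.0091 and -0.02, and the age difference of LHCB4.3 0.06. In WT over time LHCA5 reached 0.05 and, with upper-quartile scaling, LHCA2 -0.01. The count of members called lower in snap33 at 12 d was 35 to 42 over 16 alternatives, that of the difference between ages 33 to 40 over 21, and that of snap33 over time 36 to 42 over 15. With the replicate block by harvest date they were 35 lower at 12 d, 33 lower for the difference, and 3 higher and 1 lower at 5 d. Apart from LHCA1, LHCB6 and LHCB7 at 12 d, the block changed no genotype call at either age. At 5 d the 3 members called higher became 0 to 5 when single libraries were left out. In WT over time, the 5 higher became 3 with upper-quartile scaling and 3 to 6 without single libraries. The 7 lower became 11 with upper-quartile scaling, 3 with only the 6 WT libraries, and 0 to 10 without single libraries. The cause was not tested. Upper-quartile scaling moved the median of all genes to -0.16 at 12 d and to -0.14 in snap33 over time. It also moved the snap33 to WT ratio of summed PSI and PSII at 12 d to 0.637 for both. The 5 d calls of PSAD2 and LHCB2.3 were each lost without 4 of the libraries, with adjusted p-values of 0.0558 to 0.135 for PSAD2 and 0.0688 to 0.106 for LHCB2.3 (edgeR). That of LHCB1.4 was lost without WT 5 d replicate 3 (edgeR adjusted p = 0.0614). LHCB7, with 40 to 89 counts per library, was the member with the fewest counts and the least precision from depth. Leaving out single libraries for the named genes of the other lists was chosen after seeing the data.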
